A study of Caenorhabditis elegans with 12 samples.

Results

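The genes described here encode the lysozymes, saposin-like proteins and antimicrobial peptides of Caenorhabditis elegans. They were chosen by name alone: every gene whose name begins with lys-, ilys-, spp-, cnc-, abf-, fipr- or thn- and a number, together with nlp-27 to nlp-34. The rule took 100 of 45836 genes: 29 fungus-induced protein related genes (fipr), 23 saposin-like genes (spp), 11 caenacins (cnc), 10 lysozymes of the lys class, 8 thaumatin-like genes (thn), 8 neuropeptide-like genes (nlp), 6 antibacterial factors (abf) and 5 invertebrate-type lysozymes (ilys). RNA of whole gravid adults was sequenced in 4 groups of 3 biological replicates, each pooled from 3 plates of 1500 eggs. The control group was wild-type N2 kept throughout at 20 °C. The F0 group was N2 that had spent 5 generations at 25 °C; harvest followed 54 to 56 h after eggs were plated. The F3 group descended from F0 animals that were moved back to 20 °C as L4 larvae; it was harvested after 3 generations there, at 72 to 76 h. The set-25 group was strain MT17463, set-25(n5021) III, kept at 20 °C and likewise collected at 72 to 76 h. SET-25 methylates histone H3 on its lysine 9. The growth protocol states no hours for the control group, and it names no wild-type population grown beside the mutants, whose libraries carry later numbers. Genotype and library batch can therefore not be told apart. For F0, temperature and age at harvest can likewise not be told apart. No group at 20 °C had stated hours of 54 to 56 h.

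C. elegans feeds on bacteria and lacks circulating immune cells and adaptive immunity, and its defence rests on the epithelia of the gut, pharynx and skin. Lysozymes cut the peptidoglycan of bacterial cell walls, and caenopores, the pore-forming members of the saposin-like family, make holes in bacterial membranes. Many genes of both classes are known from the intestine, where they serve in digesting food bacteria as well as in defence. The glycine-rich peptides of the nlp-29 cluster and the caenacins are made mainly in the epidermis and are known for their induction by fungal infection and wounding, through p38 MAP kinase signalling for nlp-29 and TGF-beta signalling for cnc-2. The abf genes encode defensin-like peptides.

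Of the 100 genes, 59 passed the filter on low counts and were tested. The other 41 comprised 9 with a count of 0 in all 12 libraries (abf-3, cnc-5, cnc-9, fipr-12, fipr-14, fipr-25, spp-11, spp-21 and thn-4) and 32 with small totals, of which fipr-8 had the highest at 96.87 counts over all libraries. Levels are given as CPM, read counts scaled to library size. A count of 0 allows a level of up to 0.00872 CPM, taking 3 counts of the 344124496 scaled gene counts in the 12 libraries and covering counting error only. Total counts ran from 10678819 to 35483865 per library, and the 100 genes together took 0.232 to 0.288% of the counts on genes. The share of ribosomal RNA was 3.43 to 4.93% in wild-type libraries, and 11.7%, 4.01% and 26.3% in set-25 libraries 1, 2 and 3. The median coefficient of variation among 42 of these genes with a mean count of at least 50 was 6.67% in control, 6.94% in F0, 13.1% in F3 and 7.74% in set-25. Over the 10437 genes of that depth it was 3.86%, 3.85%, 7.11% and 5.93%. The set-25 transcript itself stood at 69.7, 65.9 and 66.8 CPM in control and at 59.1, 59.3 and 50.7 CPM in the mutant libraries. It was lower in wild-type F0, at 53.1, 50.9 and 55.6 CPM (log2 -0.34, SE 0.070, edgeR adjusted p = 0.00189). Which part of the gene n5021 alters was not given in the sources used here. The level therefore does not check the labels. In RNA from whole animals, fewer cells of a type and less RNA per cell cannot be told apart.

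The tested genes differed widely in level. On the scale of mean CPM per kilobase of exon in control, spp-5 stood highest at 647, followed by spp-14 at 536, ilys-5 at 524, lys-4 at 510.2 and spp-17 at 403; ilys-3 was the lowest at 0.131. The median of all tested genes with a known exon length was 7.15 on that scale. SPP-5, or caenopore-5, is a pore-forming peptide active against Escherichia coli, the food of laboratory worms. Its level was 229.8, 243 and 245 CPM in control, 233, 265 and 257 in F0, 229, 213 and 219 in F3 and 264, 270.2 and 252 in set-25. Its control and F0 libraries overlapped, and F3 was lower than F0 (log2 fold change -0.19, standard error (SE) 0.048, edgeR quasi-likelihood test with Benjamini-Hochberg adjusted p = 0.00525), a call lost without F0 replicate 2 (-0.14). spp-14 stood at 190.3, 194 and 188 CPM in control, 190.2, 186 and 193 in F0, 190.5, 179 and 207 in F3 and 189, 187 and 181 in set-25, and passed the test in none of the 4 comparisons. The highest member of each other family, per kilobase in control, was fipr-21 at 183, nlp-27 at 164, cnc-8 at 78.5, thn-2 at 21.8 and abf-6 at 5.26. Neither nlp-27 (47.0, 54.8 and 53.8 CPM in control, 44.5, 42.6 and 51.4 in F0, 52.6, 48.4 and 52.2 in F3 and 46.3, 42.7 and 45.7 in set-25) nor abf-6 (3.34, 4.02 and 3.705 CPM in control, 2.84, 3.10 and 3.24 in F0, 3.54, 3.95 and 3.65 in F3 and 3.80, 4.003 and 5.29 in set-25) passed in any comparison.

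The summed level of the saposin-like family differed little between control and F0, at 977, 1014 and 1015 CPM in the control libraries and 965, 1024 and 1032 CPM in F0. The lys class summed to 735, 692 and 725 CPM in control and 666, 661 and 684 CPM in F0, each F0 library below each control. The thaumatin-like class summed to 20.7, 15.4 and 18.9 CPM in control and 38.2, 53.9 and 44.5 CPM in F0, ranges that do not overlap. These sums carry no test.

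**Figure D1:**
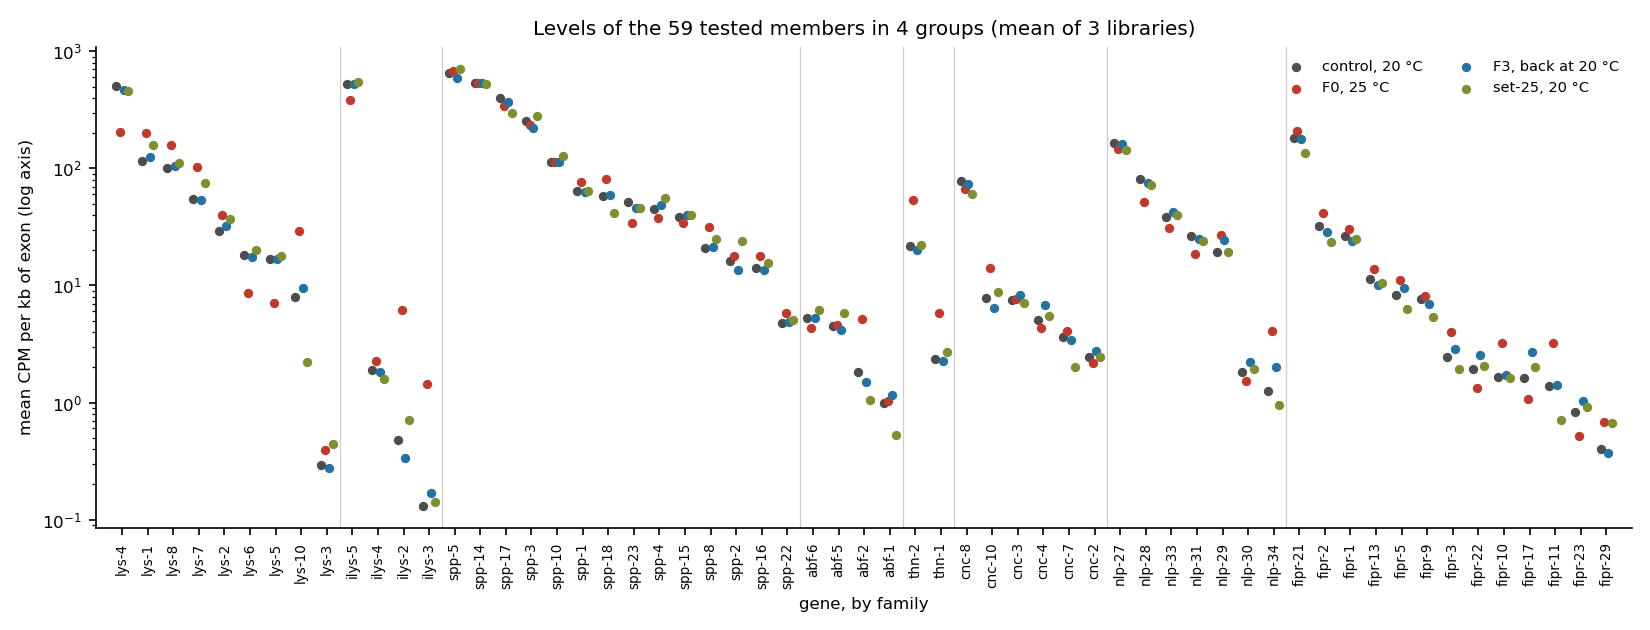
Mean level of the 59 tested genes in each group (CPM per kilobase of exon, log axis, mean of 3 libraries), ordered within family by the control level. Points of the 4 groups lie close together for spp-5 and spp-14 and apart for lys-4, lys-10, ilys-2 and thn-2.

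F0 was set against control to ask which of these genes differ between the groups, where temperature and age at harvest cannot be told apart. Lysozyme genes moved in both directions: lys-1, lys-2, lys-7, lys-8, lys-10, ilys-2 and ilys-3 rose in F0, while lys-4, lys-5, lys-6 and ilys-5 fell. Both tested thaumatin-like genes, 6 of 13 fipr genes and 4 of 14 spp genes rose, and 3 of 7 nlp genes fell. In all, 22 of the 59 tested members were higher (37.3%, against 16.7% of all 14466 genes tested) and 9 were lower (15.3%, against 12%). The median log2 fold change was 0.17 over the members tested and 0.01 over all genes tested. In each of the 31 called members the F0 and control libraries did not overlap. A call with 3 libraries a group makes this likely, and the share over all called genes was not counted. The tested members are not a neutral sample, since 4 of them (abf-1, ilys-2, ilys-3 and nlp-34) passed the filter on low counts only because of the F0 libraries, and 3 of those 4 were called higher. F0 replicate 2 was the highest F0 library in 14 of the 22 members that were higher.

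**Figure D2:**
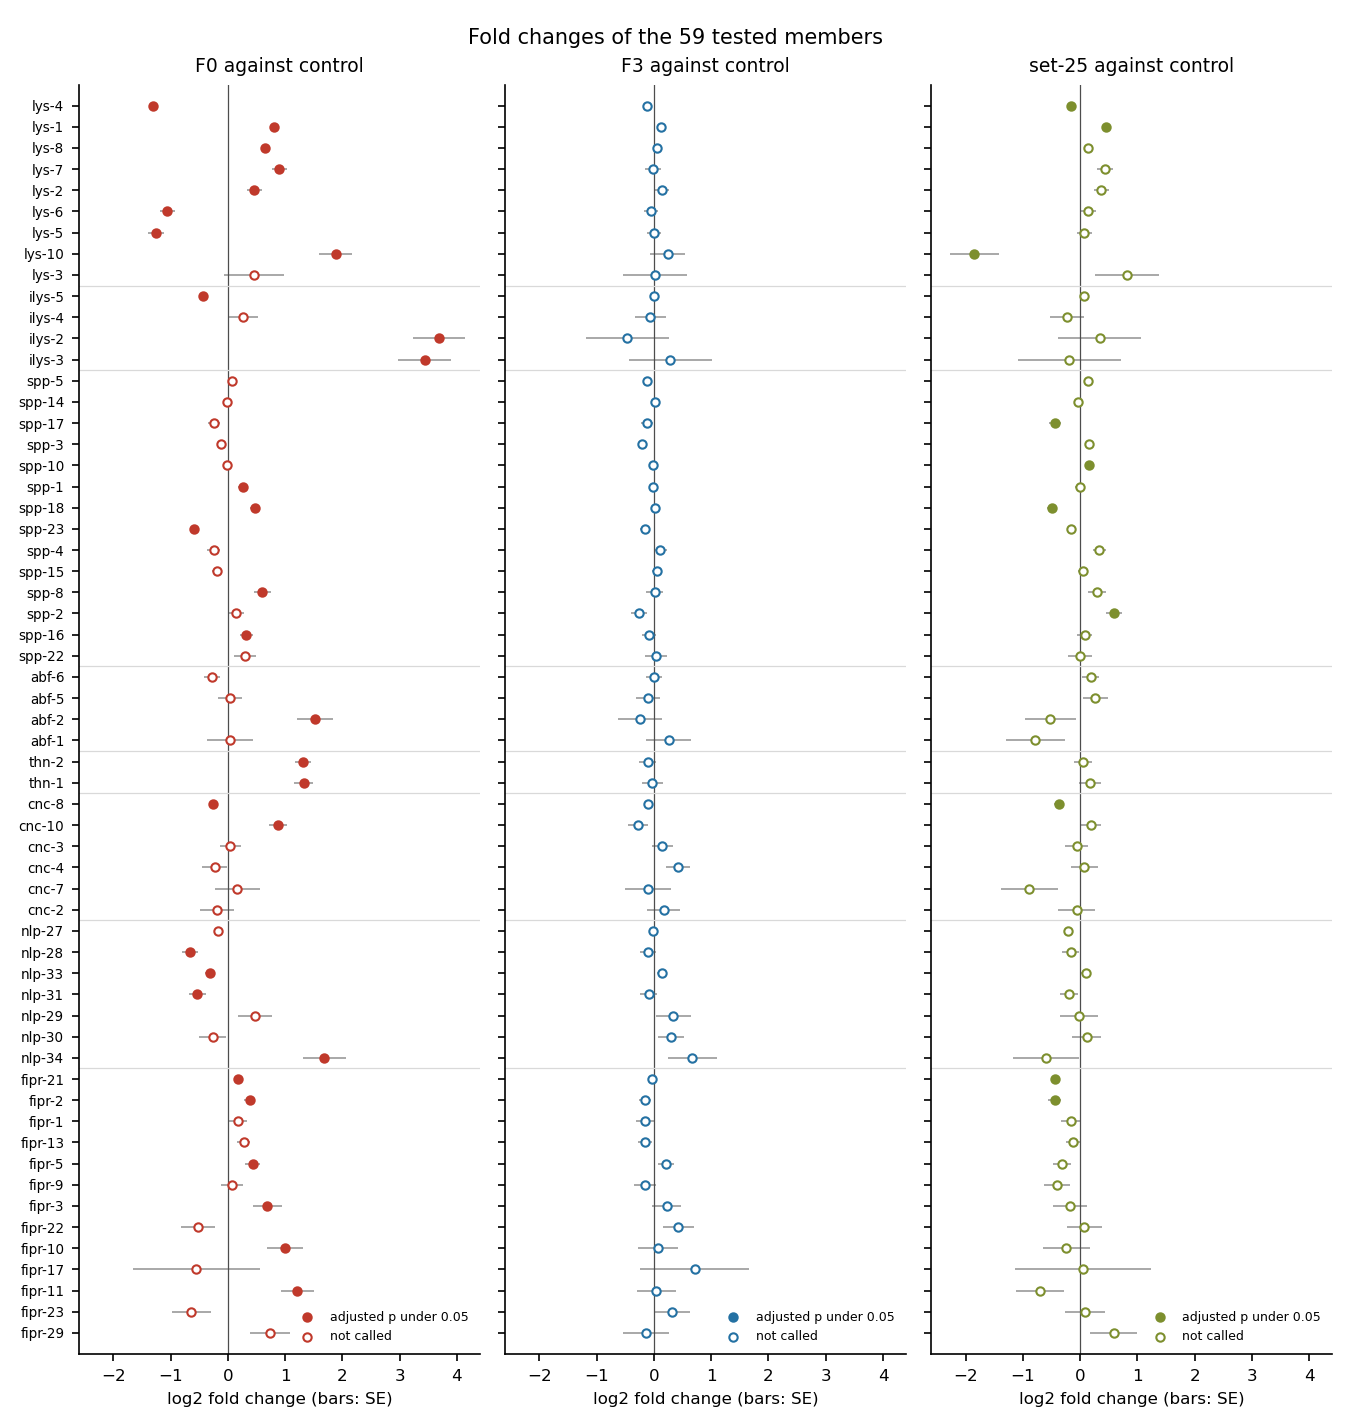
Log2 fold change of the 59 tested genes in 3 comparisons with control (points, filled where the adjusted p is under 0.05; bars, SE), grouped by family and ordered by control level. Filled points are spread to both sides in F0 (22 higher, 9 lower), absent in F3, and few in set-25 (3 higher, 7 lower).

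The more abundant lys genes moved in opposite directions in F0. lys-4, the highest of them per kilobase at 20 °C, stood at 410.1, 382 and 414 CPM in control, 164, 165 and 158 in F0, 403, 360.1 and 347 in F3 and 353, 372 and 361 in set-25. All 3 F0 libraries lay far below the other 9. The fall in F0 was 2.48-fold (log2 -1.31, SE 0.052, edgeR adjusted p = 8.4e-12). lys-5 and lys-6, which lie next to lys-4 in the reference annotation, moved with it. lys-5 stood at 11.0, 11.5 and 12.99 CPM in control, 5.14, 4.29 and 5.38 in F0, 13.8, 12.6 and 8.98 in F3 and 12.1, 12.76 and 12.3 in set-25. lys-6 stood at 12.9, 12.4 and 13.3 CPM in control, 6.59, 5.22 and 6.67 in F0, 15.01, 12.6 and 9.70 in F3 and 14.1, 14.5 and 13.7 in set-25. Both fell in F0, by 2.39-fold and 2.08-fold, with no overlap between the groups (log2 -1.26, SE 0.14, and -1.06, SE 0.13; edgeR adjusted p = 3.4e-06 and 1.3e-05). The deposited counts include fractions, as splitting of ambiguous reads would give, and neighbours of similar sequence such as these may share reads.

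In the opposite direction, lys-1, for which overexpression is known to raise resistance to Serratia, stood at 112.7, 112.9 and 106 CPM in control, 195, 187 and 195 in F0, 128, 111 and 121 in F3 and 159, 145 and 148 in set-25. The F0 libraries were the highest of all groups, and the set-25 libraries lay between F0 and control without overlapping either. The rise in F0 was 1.74-fold (log2 0.80, SE 0.048, edgeR adjusted p = 2.4e-09). lys-7 and lys-8 are known targets of the insulin-signalling transcription factor DAF-16. lys-7 stood at 54.4, 45.7 and 48.2 CPM in control, 91.2, 88.1 and 97.7 in F0, 61.3, 42.8 and 42.5 in F3 and 67.004, 63.6 and 72.0 in set-25, and lys-8 at 97.1, 96.4 and 99.8 CPM in control, 149.8, 152.1 and 160.5 in F0, 106, 91.4 and 108 in F3 and 109, 107 and 108 in set-25. Both rose in every F0 library above every control library, by log2 0.90 (SE 0.13) and 0.66 (SE 0.050; edgeR adjusted p = 0.00092 and 3.1e-08). Another gene overlaps lys-8 on the opposite strand in the reference. The counting is not stated to have used strand, and reads of the pair cannot be told apart. lys-2, the neighbour of lys-1, was higher by log2 0.47 (SE 0.12, edgeR adjusted p = 0.016), a call that was lost without control replicate 2 (0.43) or 3 (0.41), without F0 replicate 1 (0.40) or 3 (0.37) and in a fit of only the 6 libraries compared (0.46). The third gene of that row, lys-3, stood at 0.676, 0.154 and 0.156 CPM in control and 0.544, 0.239 and 0.542 CPM in F0 and did not pass. Per kilobase, lys-4 and lys-1 stood at 510.2 and 115 CPM in control and at 206 and 201 CPM in F0. The ratio of lys-4 to lys-1 counts within a library, not scaled to length, was 3.64, 3.39 and 3.91 in control and 0.842, 0.881 and 0.812 in F0. It was 3.14, 3.24 and 2.87 in F3 and 2.23, 2.56 and 2.44 in set-25.

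The 3 largest fold changes of F0 among the tested members were those of the lysozyme genes ilys-2, ilys-3 and lys-10. lys-10 stood at 6.83, 4.45 and 5.41 CPM in control, 14.1, 29.3 and 17.7 in F0, 7.61, 5.25 and 6.75 in F3 and 1.16, 1.84 and 1.60 in set-25. The groups form an order with F0 on top, control and F3 overlapping in the middle, and set-25 at the bottom. In F0 lys-10 rose 3.68-fold (log2 1.88, SE 0.29, edgeR adjusted p = 0.00102), with F0 replicate 2 well above the other two. ilys-2 and ilys-3 are adjacent in the reference, and ilys-3 is known for breaking down ingested bacteria in the pharynx and gut. ilys-2 stood at 0.391, 0.196 and 0.125 CPM in control, 2.16, 5.02 and 1.87 in F0, 0.229, 0.0960 and 0.175 in F3 and 0.313, 0.247 and 0.492 in set-25. ilys-3 stood at 0.107, 0.0561 and 0.0311 CPM in control, 0.706, 0.949 and 0.499 in F0, 0.0979, 0.0640 and 0.0877 in F3 and 0.0482, 0.0379 and 0.123 in set-25. Both were close to the limit of detection at 20 °C: summed over the 3 libraries, ilys-2 had 22 counts in control and 307.33 in F0, and ilys-3 had 6 and 73.33. The rises were log2 3.68 (SE 0.45) and 3.44 (SE 0.47; edgeR adjusted p = 3.1e-05 and 3e-05). Both genes passed the low-count filter only through F0, the group in which they are high; with no filter the values were log2 3.67 and 3.43. By contrast ilys-5, which holds nearly all RNA of this class, stood at 679, 648 and 691 CPM in control, 509, 505 and 475 in F0, 728, 639 and 651 in F3 and 701, 705 and 708 in set-25. Its 3 F0 libraries were the lowest of the 12, and it fell by a factor of 1.35 (log2 -0.44, SE 0.053, edgeR adjusted p = 8.4e-06).

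**Figure D3:**
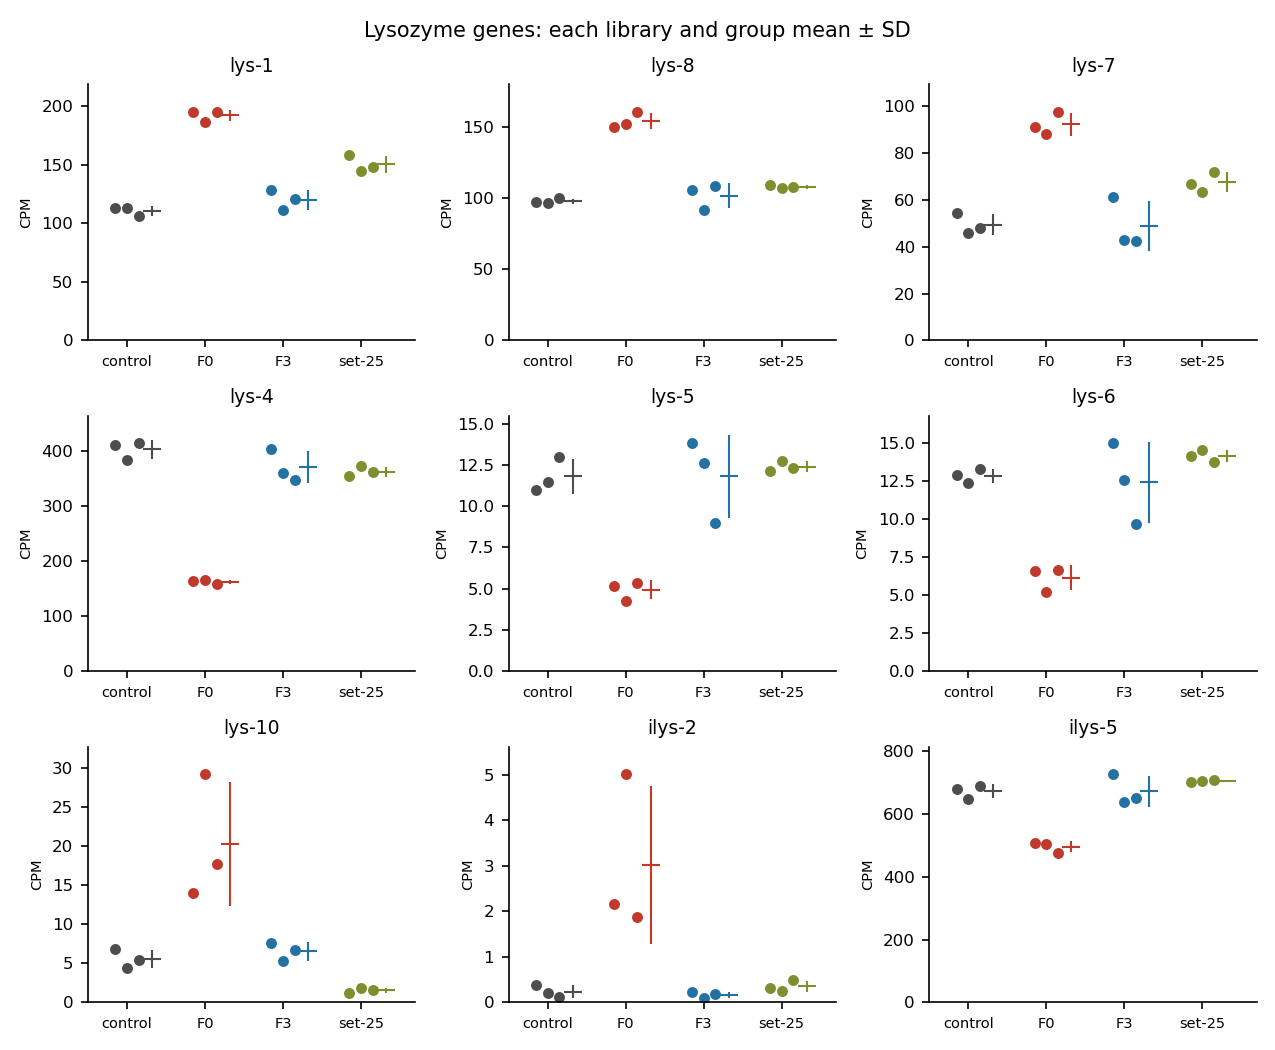
Levels of 9 lysozyme genes (CPM; points, single libraries; crosses, mean ± SD of 3 libraries). In F0, lys-1, lys-7, lys-8, lys-10 and ilys-2 lie above control and lys-4, lys-5, lys-6 and ilys-5 below it, with F3 libraries overlapping control and lys-10 lowest in set-25.

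Thaumatin-like proteins are best known from plants, as defence proteins against fungi. thn-2 stood at 18.5, 13.8 and 17.1 CPM in control, 34.2, 48.7 and 40.1 in F0, 17.5, 13.5 and 14.8 in F3 and 18.2, 16.8 and 15.5 in set-25. thn-1, its neighbour, stood at 2.07, 1.51 and 1.78 CPM in control, 3.94, 5.14 and 4.31 in F0, 2.01, 1.47 and 1.76 in F3 and 2.01, 1.83 and 2.34 in set-25. Every F0 library exceeded all 9 others in both genes. The rises in F0 were 2.49-fold and 2.51-fold (log2 1.32, SE 0.14, and 1.33, SE 0.17; edgeR adjusted p = 4.8e-05 and 1.2e-05). The other 6 thn genes were too low to test, and thn-3, thn-7 and thn-8 are listed as pseudogenes in RefSeq.

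Of 14 tested saposin-like genes, spp-1, spp-8, spp-16 and spp-18 rose in F0 and spp-23 fell, all by less than 2-fold. Over all genes tested 16.7% were higher and 12% lower. spp-18 stood at 27.5, 25.5 and 28.8 CPM in control, 36.1, 39.1 and 37.9 in F0, 29.8, 23.9 and 29.01 in F3 and 19.04, 19.3 and 20.2 in set-25. The F0 libraries were the highest and the set-25 libraries the lowest, with control and F3 overlapping between them. The rise in F0 was log2 0.47 (SE 0.073, edgeR adjusted p = 0.00011). spp-23 stood at 15.2, 17.2 and 16.2 CPM in control, 10.3, 11.5 and 10.7 in F0, 14.6, 14.3 and 14.8 in F3 and 14.1, 15.9 and 12.99 in set-25, with no overlap between F0 and any other group. Its fall was log2 -0.58 (SE 0.080, edgeR adjusted p = 3.3e-05). Its neighbour spp-17, at 146, 152.2 and 143 CPM in control, 117, 118 and 139.5 in F0, 116, 132 and 157 in F3 and 112.6, 111 and 101 in set-25, did not pass in F0 (log2 -0.24, SE 0.10). spp-8 stood at 23.1, 26.1 and 32.3 CPM in control and 37.2, 46.9 and 39.6 CPM in F0 and rose by log2 0.60 (SE 0.15), a call lost without control replicate 2 (0.56). spp-1, which encodes a caenopore, rose by only 0.26 (log2, SE 0.075), a call lost without control replicate 1 (0.23) or 2 (0.21) and without F0 replicate 3 (0.21). It lies opposite the much more abundant gene T07C4.3 (mean 291 CPM in control and 279 CPM in F0). Without a stated strand setting of the counting their reads cannot be told apart. The call of spp-16 (log2 0.32, SE 0.12) was lost without control replicate 1 (0.30), 2 (0.33) or 3 (0.31), without F0 replicate 1 (0.31), 2 (0.29) or 3 (0.34), with DESeq2 size factors (0.32), with the replicate block (0.32) and by DESeq2 (0.32).

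Among the antibacterial factors, abf-2, which encodes a peptide with antimicrobial activity that is made in the pharynx, stood at 0.587, 0.449 and 0.374 CPM in control, 0.853, 1.71 and 1.40 in F0, 0.424, 0.464 and 0.263 in F3 and 0.241, 0.455 and 0.123 in set-25. All 3 F0 libraries were above the rest. It rose by log2 1.52 (SE 0.32, edgeR adjusted p = 0.00153). The other 3 tested members, abf-1, abf-5 and abf-6, differed by log2 0.040, 0.037 and -0.28 and did not pass.

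**Figure D4:**
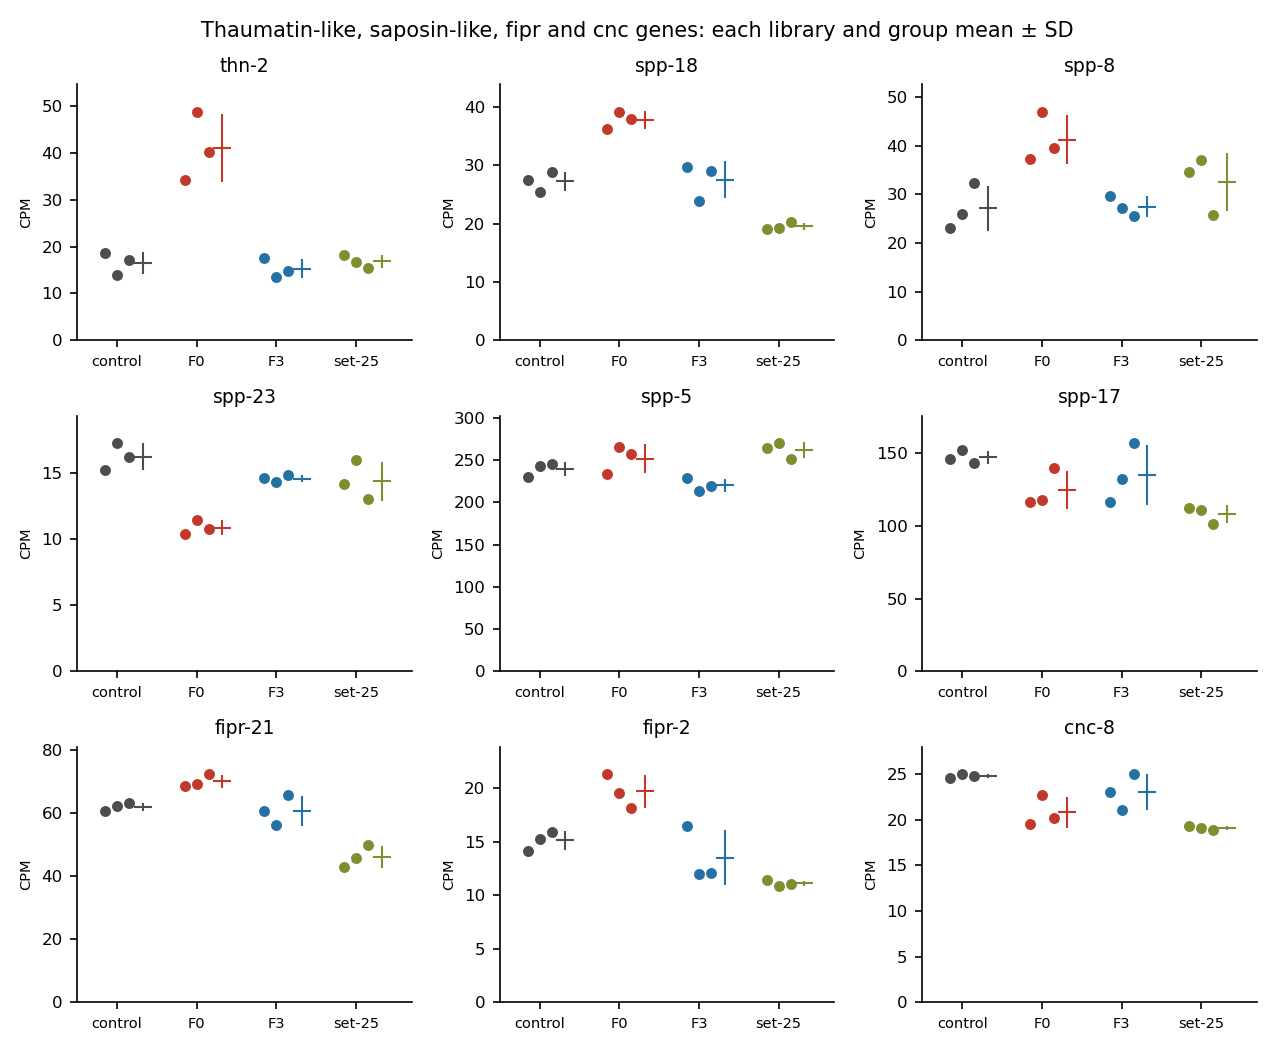
Levels of 9 thaumatin-like, saposin-like, fipr and cnc genes (CPM; points, single libraries; crosses, mean ± SD of 3 libraries). thn-2 and spp-8 are high in F0, spp-23 is low in F0, spp-18 is high in F0 and low in set-25, and fipr-21, fipr-2, spp-17 and cnc-8 are low in set-25.

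The epidermal peptide genes did not move as a block in F0. nlp-28, nlp-31 and nlp-33 fell, nlp-34 and cnc-10 rose, cnc-8 fell, and nlp-27, nlp-29, nlp-30, cnc-2, cnc-3, cnc-4 and cnc-7 did not pass. nlp-28 stood at 24.03, 28.3 and 29.4 CPM in control, 13.4, 21.4 and 16.9 in F0, 27.2, 23.1 and 25.7 in F3 and 22.6, 26.5 and 23.5 in set-25. nlp-31 stood at 9.05, 13.5 and 13.3 CPM in control, 7.79, 8.75 and 8.36 in F0, 12.9, 11.403 and 9.46 in F3 and 9.21, 10.7 and 12.5 in set-25, and nlp-33 at 12.1, 13.9 and 13.4 CPM in control, 10.1, 11.3 and 10.6 in F0, 15.2, 13.2 and 15.1 in F3 and 13.6, 15.6 and 12.4 in set-25. In all 3 genes the F0 libraries lay below the control libraries. The falls were log2 -0.66 (SE 0.14), -0.53 (SE 0.15) and -0.31 (SE 0.090; edgeR adjusted p = 0.00558, 0.0137 and 0.0165). These calls were not firm: that of nlp-28 was lost in a fit of only the 6 libraries compared (-0.67), that of nlp-31 without control replicate 2 (-0.45) or 3 (-0.46), and that of nlp-33 without control replicate 2 (-0.28) and without F0 replicate 1 (-0.28).

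nlp-34, the first gene in the row of nlp-28 and nlp-31, stood at 0.320, 0.337 and 0.342 CPM in control, 0.868, 1.34 and 1.03 in F0, 0.196, 0.496 and 0.912 in F3 and 0.193, 0.190 and 0.369 in set-25, so that F0 exceeded control while F3 libraries were spread over both ranges. It rose in F0 by log2 1.69 (SE 0.38, edgeR adjusted p = 0.00267), having passed the low-count filter only through F0; with no filter the value was log2 1.67. nlp-29, the standard reporter gene for epidermal infection and wounding, stood at 4.12, 7.91 and 8.42 CPM in control, 6.85, 12.6 and 9.16 in F0, 11.3, 7.78 and 6.90 in F3 and 7.02, 6.57 and 6.79 in set-25. Its groups overlapped, and the difference of log2 0.47 in F0 (SE 0.30, edgeR adjusted p = 0.284) did not pass. Control replicate 1 was low, at 0.504 times the mean of the other control libraries. The same library was the lowest control in all 9 tested genes of the gene rows of nlp-29 and cnc-2. These are nlp-27 to nlp-31, nlp-34 and cnc-2 to cnc-4. F0 replicate 1 was the lowest F0 library in 7 of the 9. cnc-4 stood at 1.53, 2.44 and 2.65 CPM in control, 1.81, 1.86 and 2.02 in F0, 3.07, 2.37 and 3.52 in F3 and 1.70, 2.83 and 2.59 in set-25 and cnc-2 at 0.533, 1.08 and 0.996 CPM in control, 0.515, 0.746 and 1.04 in F0, 0.816, 0.960 and 1.18 in F3 and 0.867, 0.759 and 0.985 in set-25. In both genes the control range overlapped that of F0. cnc-10 stood at 2.29, 3.14 and 3.18 CPM in control, 4.34, 5.83 and 5.65 in F0, 2.69, 2.08 and 2.37 in F3 and 3.69, 3.13 and 2.95 in set-25 and rose in F0 by log2 0.87 (SE 0.16, edgeR adjusted p = 0.00048), with no overlap. cnc-8 stood at 24.5, 24.9 and 24.7 CPM in control, 19.5, 22.7 and 20.2 in F0, 22.999, 21.04 and 25.0 in F3 and 19.3, 19.1 and 18.9 in set-25; its fall of log2 -0.25 (SE 0.070, edgeR adjusted p = 0.0113) was lost without F0 replicate 1 (-0.22).

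**Figure D5:**
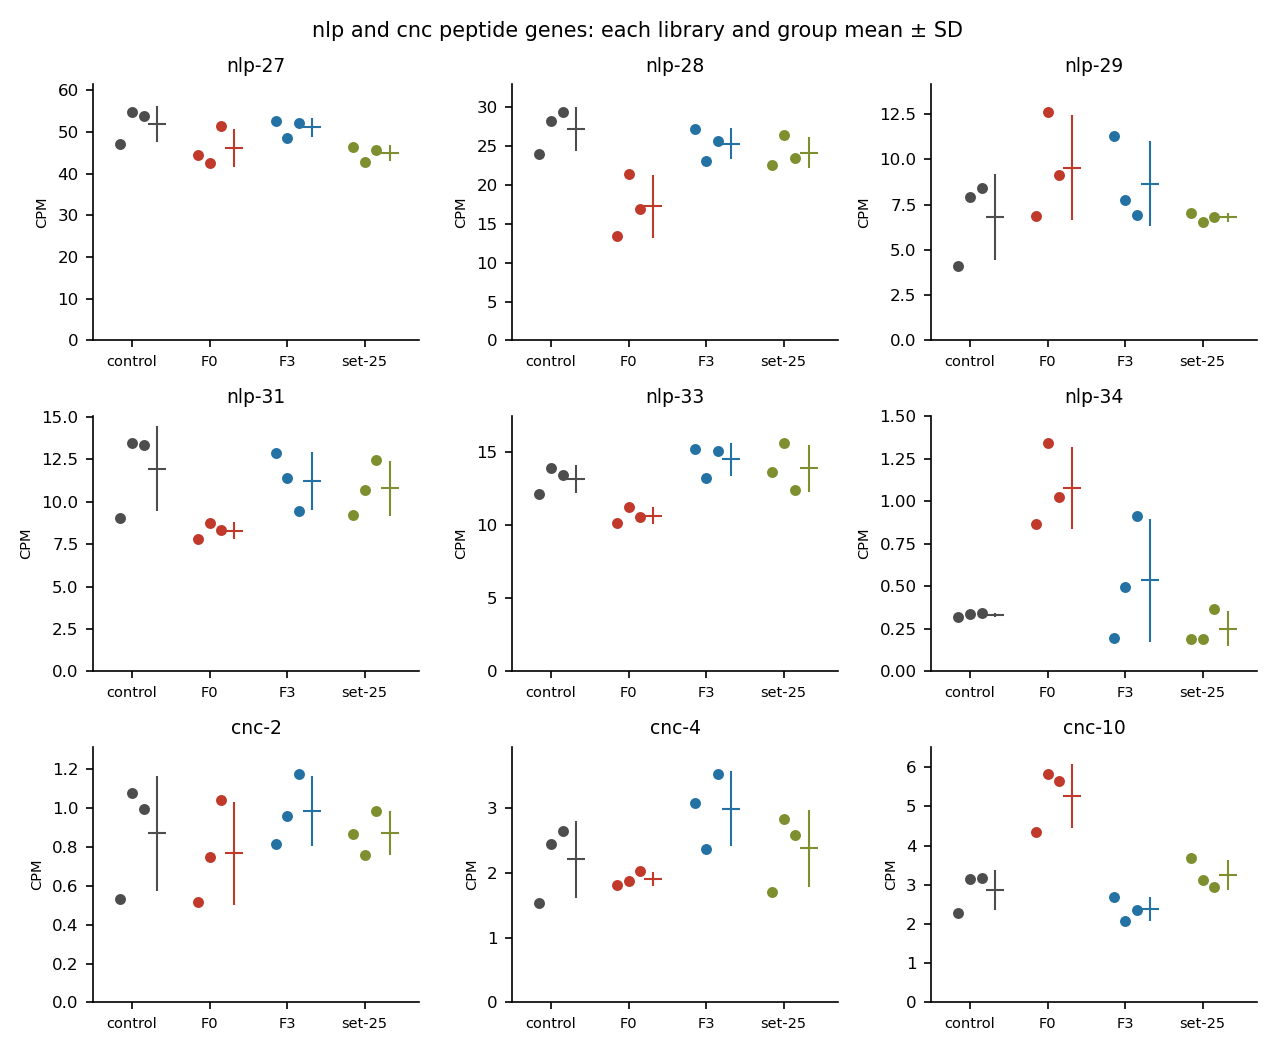
Levels of 9 nlp and cnc genes (CPM; points, single libraries; crosses, mean ± SD of 3 libraries). nlp-28, nlp-31 and nlp-33 lie lower in F0 and cnc-10 and nlp-34 higher, while control replicate 1 (first control point) is the lowest control library throughout.

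Of the 13 tested fipr genes, a family named for its relation to genes induced by fungal infection, 6 rose in F0 and none fell. Over all genes tested 16.7% were higher and 12% lower, and the family count was not tested against those shares. Only the call of fipr-11 held in every setting tried. fipr-21, which lies next to cnc-8, stood at 60.8, 62.4 and 63.3 CPM in control, 68.8, 69.3 and 72.5 in F0, 60.7, 56.2 and 65.8 in F3 and 43.0, 45.7 and 50.04 in set-25. Its F0 range was the highest and its set-25 range the lowest, without overlap with control. The rise in F0 was small (log2 0.18, SE 0.055, edgeR adjusted p = 0.0225) and was lost without control replicate 1 (0.15), 2 (0.16) or 3 (0.18) and without F0 replicate 2 (0.17) or 3 (0.14). fipr-2 stood at 14.2, 15.3 and 15.9 CPM in control, 21.3, 19.6 and 18.2 in F0, 16.4, 11.97 and 12.1 in F3 and 11.37, 10.9 and 11.0 in set-25 and rose by log2 0.38 (SE 0.10), a call lost without F0 replicate 1 (0.31). fipr-11, at 0.418, 0.372 and 0.521 CPM in control and 0.868, 1.25 and 0.934 CPM in F0, had the largest rise of the tested fipr genes (log2 1.22, SE 0.29, edgeR adjusted p = 0.00433). All 3 of its F0 libraries lay above the controls. The untested fipr-7 was picked after its values were seen. It stood at 0.0622, 0.105 and 0.0725 CPM in control and 0.609, 0.394 and 0.310 CPM in F0, from 7.82 and 44.8 counts over 3 libraries. Its counts were fractional in all 12 libraries, and it may share reads with its neighbours fipr-4, fipr-6 and fipr-8. fipr-3 was higher by log2 0.69 (SE 0.25, edgeR adjusted p = 0.0435), a call lost without control replicate 1 (0.70), 2 (0.72) or 3 (0.63), without F0 replicate 2 (0.47) or 3 (0.70) and by DESeq2 (0.69). It overlaps the far more abundant F23D12.11 (mean 88.7 CPM in control and 105 CPM in F0) on the other strand. The call of fipr-5 (log2 0.43) was lost without control replicate 1 (0.40) or 2 (0.40) and without F0 replicate 1 (0.40) or 2 (0.41), and that of fipr-10 (log2 0.99) without control replicate 2 (0.65), without F0 replicate 2 (0.91) or 3 (0.94) and by DESeq2 (0.99).

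Genes of related pathways were counted from lists drawn up by function, with earlier results of these data known. Of all 14466 genes tested, 16.7% were higher in F0 and 12% lower. The counts on these short lists were not tested against those shares. Of 33 tested immune signalling genes, 7 were higher in F0, all by less than 2-fold, and mek-1 was lower (log2 -0.16, a call lost without control replicate 1 (-0.13) and without F0 replicate 2 (-0.16) or 3 (-0.17)). Those higher included tir-1, the adaptor at the head of the p38 MAP kinase cascade (log2 0.39, SE 0.10), and cebp-1, a bZIP transcription factor (log2 0.58, SE 0.16). The call of tir-1 was lost without control replicate 1 (0.31) and without F0 replicate 3 (0.30), and that of cebp-1 without control replicate 2 (0.49) and without F0 replicate 3 (0.48). vhp-1 (log2 0.25) and zip-2 (log2 0.19) were also higher, and their calls held in every setting tried. Of 19 tested pathogen-response genes of other families, 8 were higher and 1 lower, with a median log2 fold change of 0.87. T24B8.5, a reporter gene of p38 signalling in the intestine, rose by log2 2.75 (SE 0.20, edgeR adjusted p = 2.6e-06), and F35E12.5, which encodes a CUB-like domain protein, by 4.07 (SE 0.40, edgeR adjusted p = 6.3e-05). The C-type lectin gene clec-4 was the 1 that fell (log2 -1.0019, SE 0.17). In the TGF-beta pathway 1 of 10 genes was higher and 1 lower, and in the insulin pathway 3 of 9 were lower and none higher. daf-16, which encodes the transcription factor named above for lys-7 and lys-8, differed from control by log2 -0.12 (SE 0.052, edgeR adjusted p = 0.0947).

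Marker genes of several tissues, on lists likewise chosen with earlier results known, were also counted in F0. Of all genes tested, 16.7% were higher and 12% lower. The counts of markers were not tested against those shares. Among intestine markers 1 of 11 was higher and 3 were lower, and their summed level was 2253 to 2519 CPM in F0 against 2616 to 2721 CPM in control. Among epidermis markers 2 of 11 were higher and none lower (1536 to 1664 CPM against 1272 to 1296 CPM). Among pharynx markers 4 of 9 were higher and none lower (344 to 370.1 CPM against 288 to 305 CPM). Body wall muscle markers were higher in 3 of 8 and lower in 1 (2701 to 2985 CPM against 2411 to 2624 CPM). Neuron markers were lower in 1 of 10 and higher in none (226 to 231 CPM against 224 to 230 CPM). Sperm markers were higher in 26 of 26 (160.0 to 224 CPM against 6.45 to 39.2 CPM), while 6 of 12 oocyte and eggshell markers and 4 of 6 yolk protein genes were lower and 1 yolk protein gene was higher. No listed marker was at 0 in all libraries. The part of these shifts in the differences above was not tested.

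After 3 generations back at 20 °C, no member passed the test against control among the 59 tested, although spp-3 did when no low-count filter was applied (log2 -0.21, edgeR adjusted p = 0.00634). The edgeR test called 0 of 59 members higher and 0 lower (against 0.138% and 0.124% of all genes tested), with 4 members at an unadjusted p under 0.05 (6.78%, against 5.05% of all genes), and DESeq2 called 0. The median log2 fold change was -0.00035. Estimates ran from log2 -0.46 for ilys-2 to 0.71 for fipr-17, whose standard error was 0.96. For 38 of the 59 the 95% interval of the fold change lay within 1.5-fold in both directions, so larger differences are outside the interval for those, and the rest have wider bounds. The intervals come from 1 fit that shares the spread of all 4 groups. F3 libraries varied more, with a median coefficient of variation of 13.1% against 6.67% in control. The intervals may therefore be too narrow for F3. lys-4, the member with the smallest p in F0, was at log2 -0.12 (SE 0.051) in F3 against control, thn-2 at -0.11 (SE 0.15) and lys-8 at 0.057 (SE 0.050). The 3 members with the smallest unadjusted p were spp-3, lys-1 and spp-5. spp-3 stood at 83.9, 88.4 and 89.3 CPM in control and 71.4, 73.9 and 82.5 CPM in F3 (log2 -0.20, SE 0.070, edgeR adjusted p = 0.81). lys-1 and spp-5 differed by log2 0.12 (SE 0.048) and -0.12 (SE 0.048). The immune signalling, TGF-beta, insulin and pathogen-response lists also had 0 called genes of 33, 10, 9 and 19 by edgeR, with 1, 0, 0 and 0 at an unadjusted p under 0.05.

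F3 was also set directly against its F0 ancestors. Of the 59 members 13 were higher in F3 (22%, against 13.1% of all genes) and 22 were lower (37.3%, against 17.3%), with a median log2 difference of -0.23. The 22 lower members include ilys-2, ilys-3 and nlp-34, which passed the low-count filter only because of the F0 libraries. The comparison shares the F0 libraries with the one above, so its values are given beside those of F0 against control and are not a second piece of evidence. lys-4, lys-5 and lys-6 were higher in F3 than in F0 by log2 1.19 (SE 0.052), 1.26 (SE 0.14) and 1.01 (SE 0.13). lys-1, lys-7, lys-8 and lys-10 were lower, with log2 differences of -0.68, -0.92, -0.60 and -1.64. ilys-2, which was tested only because of its F0 counts, was lower (log2 -4.15, SE 0.48, edgeR adjusted p = 2.1e-05), from 307.33 counts over 3 libraries to 15. thn-1, thn-2 and cnc-10 were also lower, at log2 -1.36, -1.42 and -1.15. The groups did not overlap in 33 of the 35 called members, the exceptions being nlp-34 and spp-15. The share over all called genes was again not counted. The call of nlp-34 (log2 -1.01) was lost without F0 replicate 2 (-0.82) or 3 (-1.04), without F3 replicate 1 (-0.60) or 2 (-0.97), in a fit of only the 6 libraries compared (-1.01) and by DESeq2 (-1.0005), and that of spp-15 (log2 0.24) without F0 replicate 1 (0.22), 2 (0.26) or 3 (0.27), without F3 replicate 1 (0.16) or 3 (0.20), with the replicate block (0.24) and in a fit of only the 6 libraries compared (0.25).

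cnc-4, fipr-13, fipr-22, fipr-23, spp-2, spp-4, spp-5 and spp-15 passed between F3 and F0 without passing between F0 and control; the difference between these comparisons was not tested. fipr-13 stood at 5.18, 5.35 and 4.95 CPM in F0 and 4.15, 3.31 and 3.96 CPM in F3 and was lower in F3 (log2 -0.44, SE 0.12, edgeR adjusted p = 0.00772), a call that held in every setting tried. cnc-4 was higher in F3 (log2 0.65, SE 0.21), a call lost without F0 replicate 1 (0.63) or 2 (0.64) and without F3 replicate 3 (0.52). fipr-22 was higher by log2 0.94 (SE 0.29), which was lost without F0 replicate 2 (0.74) or 3 (0.93) and without F3 replicate 1 (0.82); it may share reads with its neighbour fipr-23. The call of fipr-23 (log2 0.95) was lost without F0 replicate 2 (0.70) or 3 (1.05), without F3 replicate 1 (0.82) or 2 (0.99), in a fit of only the 6 libraries compared (0.96) and by DESeq2 (0.97), and that of spp-4 (log2 0.35) without F0 replicate 1 (0.29) or 3 (0.33), without F3 replicate 1 (0.24) and in a fit of only the 6 libraries compared (0.36). Those of spp-5 and spp-15 were lost as given above. spp-2 was lower (log2 -0.40), a call lost without F0 replicate 1 (-0.34), 2 (-0.41) or 3 (-0.40), without F3 replicate 2 (-0.32) or 3 (-0.32) and with the replicate block (-0.40). Among the nlp genes, nlp-28 was higher by log2 0.56 (lost without F3 replicate 1 (0.52)), nlp-31 by 0.44 (lost without F0 replicate 1 (0.41), 2 (0.49) or 3 (0.45) and without F3 replicate 1 (0.35) or 2 (0.44)), and nlp-33 by 0.44 (SE 0.090, edgeR adjusted p = 0.00113).

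In set-25 animals at 20 °C a smaller set of members differed from control. lys-1, spp-2 and spp-10 were higher, and lys-4, lys-10, spp-17, spp-18, cnc-8, fipr-2 and fipr-21 were lower. These 3 of 59 (5.08%, against 8.9% of all genes) and 7 of 59 (11.9%, against 8.14%) are shares near those of all genes, and the count by itself says nothing particular about these families. The median log2 fold change of the 59 was -0.00043. In all 10 the set-25 and control libraries did not overlap, with no share over all called genes counted. The count was 6 without set-25 replicate 1, 4 without set-25 replicate 2 and 18 in a fit of only the 6 libraries compared.

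lys-10 had the largest difference, a 3.59-fold fall (log2 -1.84, SE 0.43, edgeR adjusted p = 0.018), on the values given above. That call was lost without set-25 replicate 1 (-1.65) or 2 (-2.10) and without set-25 replicates 1 and 3 together (-1.60). lys-1 rose by log2 0.45 (SE 0.049, edgeR adjusted p = 6.9e-06), to a level between control and F0. spp-18 fell by 0.49 on the log2 scale (SE 0.081, edgeR adjusted p = 0.00044) and fipr-21 by 0.44 (SE 0.059, edgeR adjusted p = 5.8e-05). lys-1, spp-18 and fipr-21 were the 3 members called in every setting tried. cnc-8, the neighbour of fipr-21, was lower at log2 -0.37 (SE 0.075), a call lost without set-25 replicates 1 and 3 together (-0.38).

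Among the saposin-like genes, spp-2 stood at 7.39, 7.42 and 9.01 CPM in control and 9.76, 14.04 and 11.8 CPM in set-25, and was higher by log2 0.59 (SE 0.14), a call lost without set-25 replicate 2 (0.40). spp-17 was lower at log2 -0.44 (SE 0.11), lost without control replicate 1 (-0.45) or 2 (-0.42), without set-25 replicate 1 (-0.47), 2 (-0.46) or 3 (-0.40) and without set-25 replicates 1 and 3 together (-0.42). spp-10, at 171, 177 and 173 CPM and 201, 191 and 186 CPM, was higher by only 0.15 (log2, SE 0.039), lost without control replicate 1 (0.13) or 3 (0.14), without set-25 replicate 1 (0.12) or 2 (0.15), with no low-count filter (0.12) and without set-25 replicates 1 and 3 together (0.13). fipr-2 was lower at log2 -0.44 (SE 0.11), lost without set-25 replicate 2 (-0.44) and without set-25 replicates 1 and 3 together (-0.48). lys-4 was lower at log2 -0.15 (SE 0.051, edgeR adjusted p = 0.0486), lost without control replicate 1 (-0.15) or 3 (-0.14), without set-25 replicate 1 (-0.14), 2 (-0.19) or 3 (-0.15), with DESeq2 size factors (-0.15), with the replicate block (-0.15), with counts rounded down (-0.15) and without set-25 replicates 1 and 3 together (-0.12). With set-25 libraries 1 and 3 left out, 4 members were called, 2 in each direction; the lone mutant library was then assumed to vary like the other groups.

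The ilys, thn, abf and nlp genes had no called member in set-25. ilys-5 stood at log2 0.068 (SE 0.053), thn-2 at 0.049 (SE 0.16) and nlp-29 at -0.021 (SE 0.33), none past the test. Of all genes tested, 8.9% were higher in set-25 and 8.14% lower, and the list counts that follow were not tested against those shares. The lists are those used for F0, chosen with earlier results of these data known. Among immune signalling genes 8 of 33 were higher and 1 lower. atf-7, the transcription factor downstream of p38, was higher by log2 0.56 (SE 0.040, edgeR adjusted p = 3.5e-08) and nsy-1, a kinase upstream of it, by 0.56 (SE 0.072, edgeR adjusted p = 3.5e-05). vhp-1, zip-2 and skn-1 were also higher (log2 0.55, 0.42 and 0.32), and their calls held in every setting tried. snf-12 was lower (log2 -0.56), a call lost in 8 of 14 settings. daf-16 was higher by log2 0.62 (SE 0.053, edgeR adjusted p = 3.5e-07), as 1 of 3 of the 9 insulin pathway genes. For lys-7 (log2 0.44, SE 0.14, edgeR adjusted p = 0.0609) and lys-8 (log2 0.14, SE 0.052, edgeR adjusted p = 0.0653) every set-25 library lay above every control library, but neither passed the test. The same held for lys-2, at 29.6, 26.0 and 25.4 CPM in control and 36.9, 34.9 and 32.1 CPM in set-25. A link of these levels to daf-16 was not tested. Pathogen-response genes were higher in 3 of 19 and lower in none. Epidermis markers were lower in 3 of 11 (1022 to 1190.2 CPM summed, against 1272 to 1296 CPM in control), and yolk protein genes were higher in 5 of 6 (65107 to 69986 CPM against 51648 to 55383 CPM). Intestine markers summed to 2622 to 2791 CPM against 2616 to 2721 CPM. The part of these shifts in the differences of the members was not tested.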

How the data were processed

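The authors made and deposited 1 table of expected counts per feature, 45836 genes and 53925 repeat copies in 12 libraries; 22.4% of them differ from a whole number by over 1e-06. Per the labels' protocols, stranded total RNA was depleted of rRNA without poly(A) selection. The submitters' processing notes name, with no role, TopHat2 2.1.0, featureCounts 1.5.1 as well as DESeq2 1.8.1. Build, strand setting and handling of ambiguous reads were not given in the sources used here; no positions are printed, and near-identical members may share reads. Names, exon lengths and gene order come from the Ensembl annotation of WBcel235, which matched 97 of 100 members; RefSeq gave the biotype of the rest.

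The design had assumed whole counts; the expected counts were rounded. Genes were tested with edgeR 4.0.16 in R 4.3.3 (quasi-likelihood, robust, TMM scaling, filterByExpr by group) in 1 fit of all 12 libraries. Two-sided p-values were adjusted by Benjamini-Hochberg over 14466 genes, with a threshold of 0.05. Only the test of F0 against control was checked on simulated counts, in which the groups did not differ in spread. CPM are counts scaled by TMM library size. Full statistics go to up to 8 called members per direction with the largest fold change and a mean count of at least 50, the highest member of each family and the 3 smallest p in F3 against control. Members outside that rule with full statistics in F0, among them lys-8, spp-18, abf-2, ilys-3, nlp-34 and fipr-11, and fipr-7, were chosen after their values were seen. Members and lists were chosen with earlier results of these data known. Replicate numbers did not pair the libraries (correlations from -0.207 to 0.116). DESeq2 1.42.0 and other settings were tried as alternatives.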

Additional observations from a re-analysis of the deposited data

How the results depend on the processing

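No named fold change reversed its direction under any setting, and 18 of the 31 calls in F0 against control, 21 of 35 in F3 against F0 and 3 of 10 in set-25 against control held in every setting. Fitting only the 6 libraries compared gave 18 called members in set-25 (9 higher, 9 lower) in place of 10, including the same 10. With no low-count filter 91 members were tested and 1 was called in F3 against control, spp-3 (log2 -0.21, adjusted p 0.00634). In set-25, leaving out replicates 1 and 3 together gave 4 called members; the cause was not tested. Leaving out 1 library at a time gave 22 to 28 called members in F0 against control, 0 to 0 in F3 against control, 27 to 34 in F3 against F0 and 4 to 9 in set-25 against control, with 6 without set-25 replicate 1 and 4 without set-25 replicate 2. A replicate block, although the numbers only name the libraries, gave 30, 0, 34 and 11. DESeq2 gave 29, 0, 33 and 13. For genes of a few counts per library, such as ilys-3 and fipr-17, depth limits the precision, and a difference between groups could be missed.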
